A study of Mus musculus with 22 samples.

Results

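The genes described here encode 9 proteins that set, copy, read and remove DNA methylation, namely the methyltransferases Dnmt1, Dnmt3a and Dnmt3b, the cofactors Uhrf1 and Uhrf2, the dioxygenases Tet1, Tet2 and Tet3, and the methyl-CpG binding protein Mbd2. They were found by symbol, current or older, among 45101 probe sets of an Affymetrix mouse array, which gave 23 probe sets. Dnmt3a had 5 of them, Tet1 had 4, Dnmt1 had 3, Tet3 had 1 and each of the other genes had 2. All 23 carried a single gene symbol and all were tested. Averaged over the 22 arrays, 20 of 23 lay above the median of all probe set means (6.43 on the log2 scale), and the other 3 were the dimmest one of Dnmt3a, the dimmest one of Tet1 and the only one of Tet3. A pair of the Dnmt1 probe sets end in x_at and 1 of Tet1 ends in s_at, which marks designs whose probes may also match other transcripts. Unless stated otherwise, the values of a gene are those of its brightest probe set.

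The arrays hold cerebellar granule cells of mouse pups at postnatal day 7, in 3 separate experiments with 2 groups each. Chd7 mutant cultures (n = 4) were set against control cultures labelled wild type (n = 4); the study made its mutants with Atoh1-Cre, which acts in the granule lineage, on Chd7 f/f, with Chd7 f/f animals without Cre as controls. Cultures exposed for 12 h to 10 µM ICRF-193, which blocks the type II topoisomerases (n = 4), were set against cultures given DMSO (n = 4), both of unmodified genotype as far as the labels say. Cultures with an agent that the labels name Smo2 (n = 3) were set against cultures without it (n = 3). In the study's methods, progenitors were kept dividing with a Smoothened agonist, which turns on hedgehog signalling. Whether Smo2 is this agonist is not stated in the labels. The strain is written C56Bl6/J in the labels and C57BL/6N in the methods, the sex of the pups was not discriminated, and the number of pups behind an array is unknown here. The labels call the arrays of a group biological replicates, and nothing says that each came from a litter of its own, so the spread between them may in part be technical.

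In mammals, methyl groups sit mainly on the cytosine of CpG dinucleotides. Dnmt3a and Dnmt3b place new marks, while Dnmt1 copies the existing pattern onto the new strand behind the replication fork, where Uhrf1 brings it by binding half-methylated CpG. Tet enzymes oxidise the mark to hydroxymethylcytosine, which is plentiful in neurons, and proteins such as Mbd2 bind methylated CpG and bring the NuRD deacetylase and remodelling complex. Dnmt3a is the main enzyme that places new marks in postnatal neurons, and Dnmt1 and Uhrf1 are known for their role in dividing cells.

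Over all 45037 probe sets tested with limma (adjusted p under 0.05), 3.12% were called in the Chd7 comparison, 2.23% in the ICRF-193 comparison and 30.1% in the Smo2 comparison. For Chd7 these were 1406 probe sets, and 858 with the replicate number as a blocking term. Chd7 itself checked the mutant label: its dimmer probe set had 9.47 ± 0.54 in mutant and 11.50 ± 0.23 in control arrays (mean ± SD, n = 4, adjusted p = 0.0139), and its brighter one had 11.65 ± 0.25 and 11.89 ± 0.13 in these groups (adjusted p = 0.439). Which exons either one covers was not examined here. Chd7 was also lower in the other comparisons. With ICRF-193 the dimmer probe set had a change of -1.28 and the brighter one -1.35 (limma adjusted p = 0.0190 and 0.0035). With Smo2 they had -0.72 and -0.67 (adjusted p = 6.64e-05 and 0.000261). Top2b, the topoisomerase of postmitotic neurons, had changes of -0.02, 0.16 and -0.26 in the Chd7, ICRF-193 and Smo2 comparisons, all short of the threshold (adjusted p = 0.921, 0.550 and 0.0814). In the Chd7 and ICRF-193 experiments, replicates 1 and 2 of both groups deviated together, and so did replicates 3 and 4. The Y-linked gene Eif2s3y lay between 4.00 and 7.65 in mutant arrays and between 9.47 and 9.88 in control arrays, with no overlap. Of other Y-linked genes, Kdm5d lay at 4.00 to 6.92 in mutant and 8.34 to 8.96 in control arrays, and Uty at 4.00 to 6.27 and 7.26 to 8.30. The X-linked Xist was higher in the mutant, at 13.55 to 13.84 against 12.34 to 13.41. Genotype and sex-linked transcripts thus differed together between these groups, and their parts cannot be told apart. Levels of granule neuron, glial and other markers are given beside the results that they accompany.

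Sequence near the annotated starts is shown for the genes whose transcripts moved most, since members that rose together may be read beside their start regions. RefSeq starts on GRCm38.p6 were matched for 8 of the 9 genes, in 13 windows of 250 bases before a start. Each window was searched on both strands for 4 octamers of the kind bound by E2F factors, which switch on genes of DNA synthesis: TTTCCCGC, TTTGGCGC, TTTCGCGC and TTTGCCGC. Sites on opposite strands can overlap, because GCGC reads the same on both. Capitals mark a match, which stands in 1 of the 2 Uhrf1 windows (30 bases of it, chr17:56304117-56304146, + strand) as TTTCGCGC and in 1 of the 3 Dnmt1 windows (30 bases of it, chr9:20952824-20952853, - strand) as its reverse complement GCGCGAAA. Dnmt3b (chr2:153649199-153649448, + strand) is shown as a gene that rose without a match.
Uhrf1: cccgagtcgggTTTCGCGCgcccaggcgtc
Dnmt1: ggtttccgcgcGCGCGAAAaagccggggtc
Dnmt3b: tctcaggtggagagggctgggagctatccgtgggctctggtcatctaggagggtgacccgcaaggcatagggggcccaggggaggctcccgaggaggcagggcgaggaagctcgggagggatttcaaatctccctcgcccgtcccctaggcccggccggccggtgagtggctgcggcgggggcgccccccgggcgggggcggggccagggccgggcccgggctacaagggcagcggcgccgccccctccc
The Uhrf1 match lay 185 to 178 bases before its start and the Dnmt1 match 219 to 212 bases before its start. Each of these windows lies downstream of another annotated start of the same gene, and the other Uhrf1 window and the other 2 of Dnmt1 held no match. Of all 32851 windows of this length, 0.256% held TTTCGCGC and 1.86% held at least 1 of the 4 octamers, and 2 of the 13 windows described here did. The Uhrf1 window with the match held 30 CpG (the other 10), the Dnmt1 window with the match 26 and the Dnmt3b window 21, against a median of 6 over all windows, and 8 of the 13 windows reached the upper quartile of 16. These are letters in a window chosen with the expression values known, and the arrays measured neither binding nor methylation.

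The Smo2 comparison asks how cultures with this agent differ from cultures without it, and it held nearly all the calls of this gene group. With Smo2, 9 of 23 probe sets were called, all of them higher (39.1%, against 30.1% called, 14% higher and 16% lower, among all probe sets). Of all calls 46.7% were higher, and 58.5% under median centring. The 9 belong to Dnmt1 (3 of 3), Uhrf1 (2 of 2), Dnmt3b (2 of 2), Uhrf2 (1 of 2) and Mbd2 (1 of 2), and none belongs to Dnmt3a or to a Tet gene. The groups did not overlap at 13 of 23 probe sets (41.2% of all probe sets), and the median change of the 23 was 0.47 on the log2 scale, against -0.01 over all probe sets. In bulk RNA of this kind, fewer cells of a type and less of a transcript per cell cannot be told apart.

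Uhrf1, the factor that brings Dnmt1 to newly copied DNA, changed most. Its brightest probe set (1415810_at) had 12.43, 12.43 and 12.52 in the Smo2 arrays, against 8.45, 8.44 and 8.62 in the arrays without Smo2. The groups lay far apart, with the arrays of either one close together. It rose by 3.96 (95% confidence interval 3.80 to 4.12), a 15.6-fold increase (limma adjusted p = 1.67e-05), and the dimmer probe set rose by 4.42 (adjusted p = 0.000272).

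Dnmt1, the copying enzyme, rose at each of its 3 probe sets. The brightest (1422946_a_at) had 12.15, 12.13 and 12.23 in Smo2 arrays, against 10.96, 10.83 and 10.98 without Smo2. The change was 1.24 (1.11 to 1.38), a 2.37-fold increase (limma adjusted p = 0.000109). The other 2 rose by 1.36 (adjusted p = 9.02e-05) and 1.28 (adjusted p = 0.000388), so the probe sets of Dnmt1 gave nearly one value. Uhrf2, a relative of Uhrf1 that binds hydroxymethylated DNA, rose by less. It had 9.75, 9.76 and 9.78 with Smo2 and 9.36, 9.22 and 9.22 without, a change of 0.49 (0.37 to 0.61, adjusted p = 0.00137) with no overlap. Its dimmer probe set had a change of 0.48 that just missed the threshold (adjusted p = 0.0515).

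**Figure D1:**
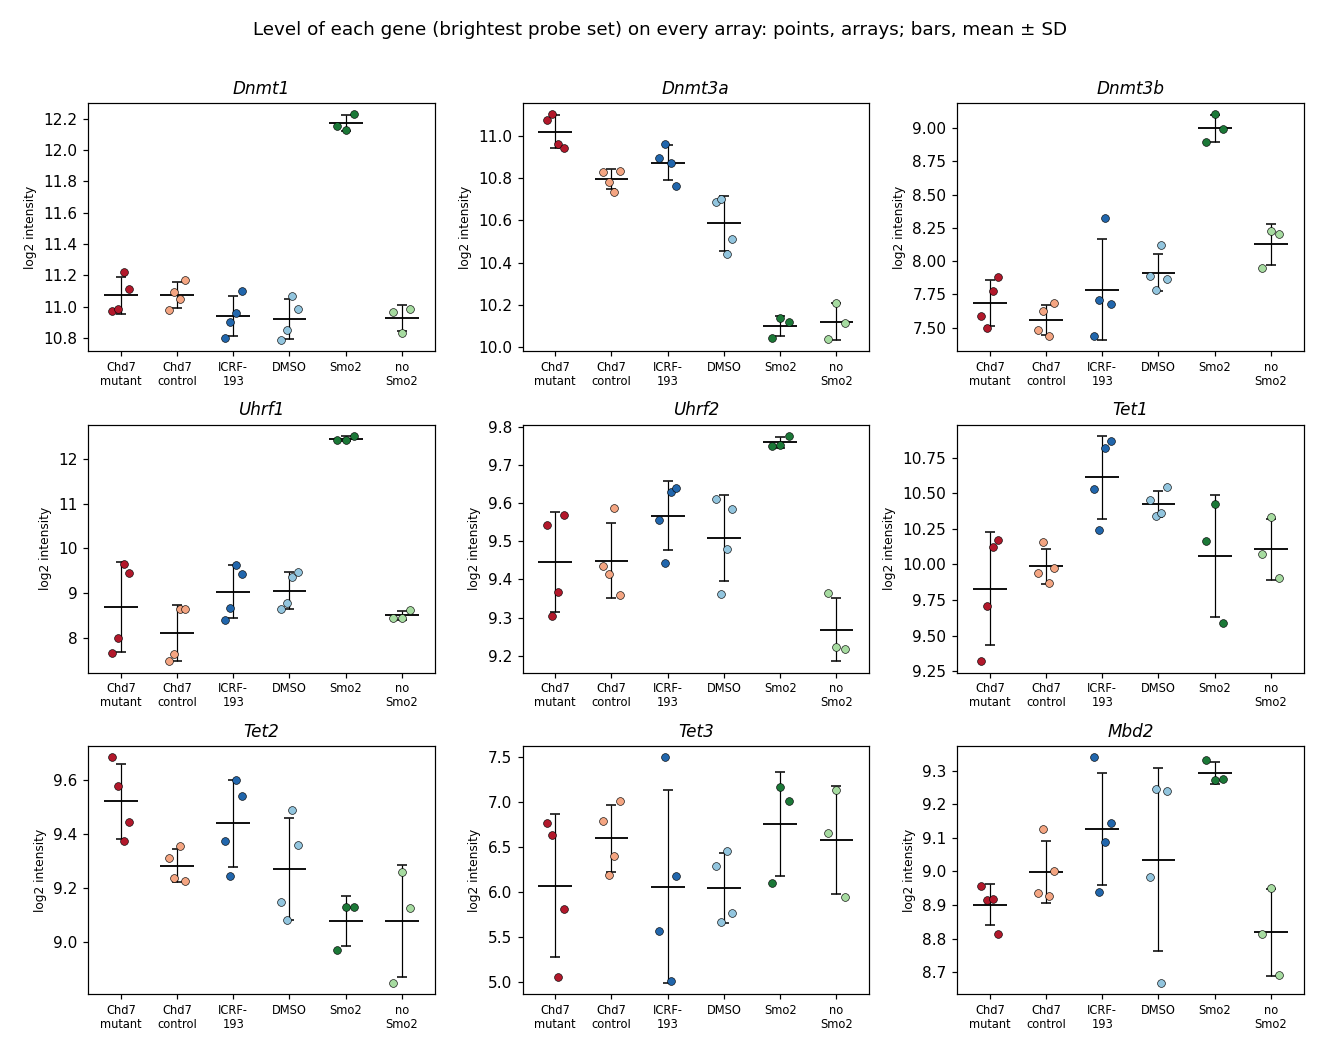
Log2 intensity of the brightest probe set of each gene on every array (points), with the mean and SD of each group (bars), for the 6 groups. Uhrf1, Dnmt1 and Dnmt3b stand high in the 3 Smo2 arrays only, Dnmt3a is highest in the Chd7 mutant, and the groups of Tet1 and Tet3 overlap in each comparison.

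Among the enzymes that place new marks, Dnmt3b and Dnmt3a parted in the Smo2 comparison. Dnmt3b (1449052_a_at) had 8.90, 9.10 and 9.0 with Smo2, against 7.95, 8.23 and 8.20 without. It rose by 0.87 (0.61 to 1.13), a 1.83-fold increase (limma adjusted p = 0.00267). The dimmer Dnmt3b probe set (1418351_a_at) had 7.60, 7.52 and 7.76 with Smo2 and 6.38, 7.12 and 6.28 without, and rose by 1.03 (adjusted p = 0.0393). Neither probe set overlapped between the groups, and the dimmer one had the wider interval (0.36 to 1.70), with 1 array without Smo2 well above the other 2.

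Dnmt3a (1423063_at) had 10.04, 10.13 and 10.12 with Smo2 and 10.04, 10.21 and 10.11 without, so the groups overlapped. The difference was -0.02, with an interval of -0.16 to 0.12 (adjusted p = 0.853), and the next brightest probe set had -0.02 as well (-0.10 to 0.06). Both intervals are narrow. The other 3 Dnmt3a probe sets had changes of 0.33 to 0.50 with intervals that include 0. Under median centring, which shifted the median of all probe sets in this comparison to 0.10 against -0.01, the Dnmt3a change was 0.15 (adjusted p = 0.0545).

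The 3 erasers gave no call in the Smo2 comparison. Tet1 had 10.17, 10.42 and 9.59 with Smo2 and 10.08, 10.34 and 9.91 without, a difference of -0.05 (-0.70 to 0.60, adjusted p = 0.962). Its dimmer probe sets had changes of 0.51, 0.30 and 0.46, and the groups did not overlap at 2 of them (adjusted p = 0.131 and 0.245). Tet2 averaged 9.08 ± 0.09 with Smo2 and 9.08 ± 0.21 without (SD, n = 3), with an interval of -0.31 to 0.31. Tet3, whose single probe set lies below the median of all probe set means, had 6.76 ± 0.58 and 6.58 ± 0.60 in these groups and an interval of -0.98 to 1.34, which bounds little. The intervals of Tet1 and Tet3 were several times as wide as those of Dnmt1, Dnmt3a and Uhrf2.

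The reader Mbd2 (1417165_at) had 9.33, 9.27 and 9.28 with Smo2, against 8.81, 8.95 and 8.69 without. The groups did not overlap, and the change of 0.47 (0.29 to 0.66) was called (limma adjusted p = 0.00717). Its dimmer probe set had a change of 0.26 (adjusted p = 0.110), with no overlap either.

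Markers of cell state moved in the same arrays. All 5 granule progenitor markers rose with Smo2, among them Ccnd1 by 5.73 and Gli1 by 4.27, and the mean level of the list was 11.70 to 11.75 with Smo2 and 8.39 to 8.72 without. Of 8 granule neuron markers 7 fell (11.61 to 11.76 with Smo2 and 12.47 to 12.57 without), and Gabra6 was not called. Of 7 astrocyte and Bergmann glia markers 6 fell and 1 rose (8.41 to 8.71 with Smo2 and 9.21 to 9.35 without), of 8 microglia markers 4 fell (6.03 to 6.38 and 7.0 to 7.47), 2 of 3 interneuron markers and 2 of 3 Purkinje cell markers fell. Of 8 oligodendrocyte lineage markers 2 rose (Olig2 by 1.19 and Pdgfra by 1.11) and 2 fell (Sox10 with -2.11 and Mbp with -1.10), with levels of 7.73 to 8.16 with Smo2 and 7.82 to 8.08 without. No endothelial or fibroblast and pericyte marker was called (0 of 5 and 0 of 7). Their part in the changes of the methylation genes was not tested.

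**Figure D2:**
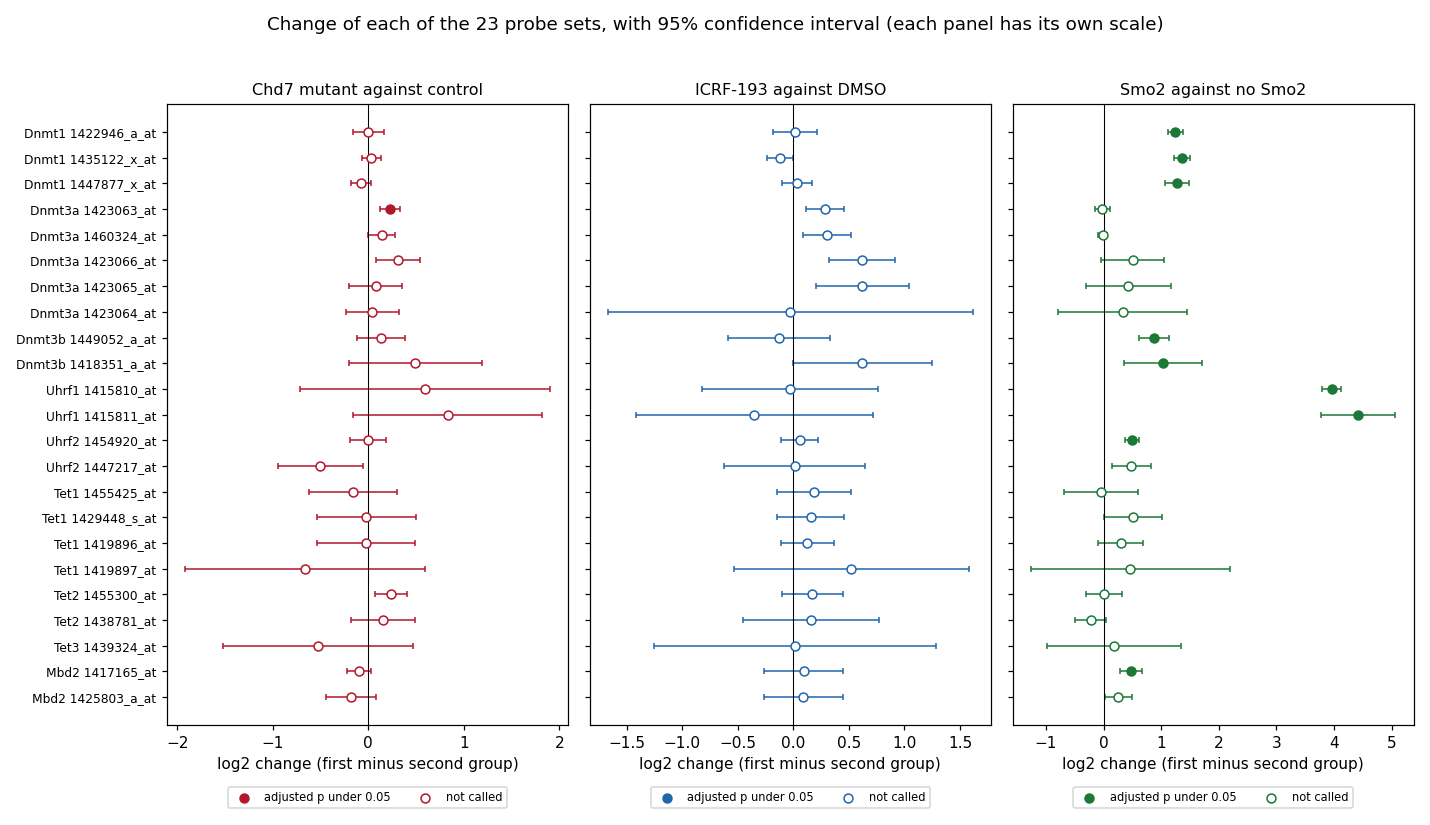
Log2 change of each of the 23 probe sets (points) with its 95% confidence interval (bars) in the 3 comparisons; filled points passed an adjusted p of 0.05. In the Smo2 panel 9 points are filled, all to the right of 0, in the Chd7 panel 1 is, and in the ICRF-193 panel none is.

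The Chd7 comparison asks which transcripts depend on this chromatin remodeller in granule neurons. In the mutant 1 of 23 probe sets was called, and it was higher (4.35%, against 3.12% called in all and 1.65% called higher among all probe sets). The groups did not overlap at 4 of 23 probe sets, against 10.7% of all, and the median change of the 23 was 0.03.

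The called probe set was the brightest of Dnmt3a. It had 11.08, 11.10, 10.96 and 10.95 in mutant arrays, against 10.83, 10.78, 10.73 and 10.83 in control arrays. Each mutant array lay above each control array. The change was 0.23 (0.12 to 0.33), a 1.17-fold increase (limma adjusted p = 0.0486), and the call was lost when replicate numbers entered the fit as a block (adjusted p = 0.0966), as it was without any one array (adjusted p between 0.0564 and 0.121). It held in 4 of 21 alternatives, among them the block of replicates 1 and 2 against 3 and 4. The change was 0.28 within replicates 1 and 2 and 0.17 within replicates 3 and 4. The other Dnmt3a probe sets had changes of 0.04 to 0.31, all positive and none called, and under median centring the called one had 0.12 (adjusted p = 0.521).

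Tet2, which oxidises methylcytosine and lacks the CpG-binding domain of Tet1 and Tet3, had 9.69, 9.58, 9.37 and 9.45 in mutant arrays, against 9.31, 9.24, 9.36 and 9.23 in control arrays. The groups did not overlap, by a margin of hundredths at the closest pair, and the change of 0.24 (0.07 to 0.41) was not called (adjusted p = 0.159). Dnmt1 averaged 11.07 in both groups (interval -0.16 to 0.16), and Uhrf2 averaged 9.45 in both (interval -0.19 to 0.18). Both intervals are narrow. Mbd2 had a change of -0.10 (-0.23 to 0.03, adjusted p = 0.462) and Dnmt3b one of 0.13 (-0.12 to 0.38, adjusted p = 0.656). Tet1 had -0.16 (-0.62 to 0.30) and Tet3 -0.53 (-1.52 to 0.46), with overlapping groups. The other probe sets without overlap were a dimmer one of Dnmt3a (0.31, adjusted p = 0.169) and the dimmer one of Uhrf2, which had 5.70, 6.23, 6.22 and 6.14 in mutant arrays and 6.84, 6.25, 6.65 and 6.57 in control arrays (-0.50, adjusted p = 0.248).

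Uhrf1 varied more with the replicate than with the genotype. It had 7.66, 7.99, 9.64 and 9.46 in mutant arrays and 7.49, 7.63, 8.63 and 8.64 in control arrays. Replicates 3 and 4 were high in both groups, so the groups overlapped, and each mutant array lay above the control array of its number. The change of 0.59 had an interval of -0.72 to 1.90 (adjusted p = 0.658, and 0.206 with the replicate number as a block). It was 0.27 within replicates 1 and 2 and 0.91 within replicates 3 and 4 (adjusted p = 0.596 and 0.0830). The 17 genes of DNA replication and cycling cells followed the same split, with mean levels of 8.70, 8.71, 9.48 and 9.44 in mutant arrays and 8.41, 8.29, 8.83 and 8.78 in control arrays, again higher in the mutant in each of the 4 pairs. Of the 17, 0 were called (median change 0.47), and with the block Top2a (0.68, limma adjusted p = 0.0128), Cdk1 (0.76, adjusted p = 0.0333) and Gins2 (0.85, adjusted p = 0.0497) were.

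Markers of other cell types also differed between these arrays. The mean level of the astrocyte and Bergmann glia list was 9.77 to 11.46 in mutant and 9.22 to 10.32 in control arrays, with 1 of 7 genes called (Gja1, higher by 0.86). That of the oligodendrocyte list was 8.40 to 9.13 and 7.39 to 8.48 in these groups, with 0 of 8 called, and that of the granule neuron list 12.10 to 12.37 and 12.45 to 12.60, with Pax6 lower by 0.42. The fibroblast and pericyte list lay at 8.97, 8.84, 9.85 and 9.88 in mutant and 8.23, 8.25, 9.01 and 9.10 in control arrays, higher in each of the 4 pairs, with 0 of 7 called (median change 0.81). The microglia list lay at 5.48 to 8.46 and 6.55 to 8.76 in these groups, lower in each pair, with 0 of 8 called (median change -0.87). Of 5 granule progenitor markers 1 was called, the cyclin Ccnd1, higher by 1.05 (median change 0.48), and Atoh1 had -0.03. That list lay at 8.15 to 9.13 in mutant and 7.87 to 8.31 in control arrays. With the replicate block Gja1, Pax6 and Ccnd1 kept their calls, and S100b, Pdgfra, Col1a2, Col3a1 and Dcn were also called, all higher. The part of these genes in the Dnmt3a value was not tested, and the sex-linked difference cannot be told apart from the genotype.

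The ICRF-193 comparison asks what inhibition of type II topoisomerases does to transcripts of cultured neurons. No probe set of the 23 was called in the limma fit, against 2.23% of all. An unadjusted p under 0.05 was found for 5 of the 23, against 5454 of all 45037. The groups did not overlap at 4 of 23 probe sets (7.61% of all), and these 4 were all of Dnmt3a. The fifth with an unadjusted p under 0.05 was a dimmer probe set of Dnmt1 (-0.12, adjusted p = 0.387). The median change was 0.09.

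The brightest Dnmt3a probe set had 10.90, 10.96, 10.87 and 10.76 with ICRF-193, against 10.69, 10.70, 10.44 and 10.51 with DMSO. Each treated array lay above each DMSO array. The change was 0.29 (0.11 to 0.46, adjusted p = 0.133). The next 3 probe sets by brightness had changes of 0.30, 0.62 and 0.62 (adjusted p = 0.216, 0.0639 and 0.184), and the dimmest had -0.03 with arrays scattered over more than 2 log2 units. The call depends on the fit. When all 6 groups shared 1 estimate of the spread, or with replicates 1 and 2 against 3 and 4 as a block, 3 of the 23 passed, among them the brightest of Dnmt3a with adjusted p = 0.00689 and 0.0167. Calls over all 45037 probe sets also rose in both of these fits. They went from 1005 in the reported fit to 2005 with all groups, and the count with the block is given below. With the means of replicates 1 and 2 and of replicates 3 and 4 taken as samples, the brightest had adjusted p = 0.617.

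For the other genes the intervals include 0 at the brightest probe set. Dnmt1 had a change of 0.02 (-0.18 to 0.22), Uhrf2 one of 0.06 (-0.11 to 0.22) and Mbd2 one of 0.09 (-0.26 to 0.44). Tet1 had 10.53, 10.24, 10.82 and 10.87 with ICRF-193 and 10.45, 10.34, 10.36 and 10.55 with DMSO. All 4 of its probe sets had positive changes, of 0.13 to 0.52, with overlapping groups, and the brightest had 0.19 (-0.15 to 0.52, adjusted p = 0.717). Tet2 had 0.17 (-0.10 to 0.45, adjusted p = 0.675), Dnmt3b -0.13 (-0.58 to 0.33) and Tet3 0.02 (-1.26 to 1.29). Uhrf1 again followed the replicates, with 8.39, 8.67, 9.64 and 9.43 under ICRF-193 and 8.63, 8.77, 9.36 and 9.47 under DMSO, and had a change of -0.03 (-0.82 to 0.76). The replication and cycling genes lay between 8.81 and 9.24 with ICRF-193 and between 8.80 and 9.46 with DMSO, with 0 of 17 called, and with the replicate block Mki67 (0.53, limma adjusted p = 0.0116) and Ccna2 (0.48, adjusted p = 0.0420) were called.

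Among the cell type markers of these arrays, Mycn was called higher by 0.71 and Neurod2 by 0.51, and Rbfox3 was called lower by 1.02 and Gad1 by 0.42. The granule neuron list lay between 12.32 and 12.36 with ICRF-193 and between 12.30 and 12.48 with DMSO. The oligodendrocyte list lay at 7.35, 7.28, 7.87 and 7.65 with ICRF-193 and 7.85, 7.80, 8.17 and 8.25 with DMSO, lower in each of the 4 pairs, with 0 of 8 called (median change -0.57). With the replicate block Gad1 lost its call (adjusted p = 0.0545 in limma), and Atoh1, Cntn2 and Mbp were called lower. The part of these genes in the Dnmt3a values was not tested.

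The changes were also set against each other in 1 fit of all 22 arrays. The Smo2 effect minus the Chd7 effect was called at 9 of 23 probe sets (19.6% of all probe sets), at the brightest one of Uhrf1 (3.37, limma adjusted p = 0.000560), Dnmt1 (1.24, adjusted p = 1.81e-07), Dnmt3b (0.74, adjusted p = 0.0228), Mbd2 (0.57, adjusted p = 0.0171) and Uhrf2 (0.50, adjusted p = 0.00221). The Smo2 effect minus the ICRF-193 effect was called at 9 of 23 as well (21.4% of all), again at Uhrf1 (3.99), Dnmt1 (1.23), Dnmt3b (1.00) and Uhrf2 (0.43). Dnmt3a ran the other way there, with -0.31 (adjusted p = 0.0198), a call lost under median centring (-0.08, adjusted p = 0.828). The Dnmt3a difference between Smo2 and Chd7 was -0.25 (adjusted p = 0.0679). The ICRF-193 effect minus the Chd7 effect was called at 0 of 23 (3.16% of all); for Dnmt3a it was 0.06 (adjusted p = 0.841).

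Across the 6 groups the genes took different orders, as far as separate experiments can be lined up. Dnmt1, Uhrf1, Dnmt3b and Uhrf2 were highest in the Smo2 arrays, which did not overlap with the group next to them, while the neighbours further down overlapped. Mbd2 was also highest there, but overlapped with the ICRF-193 arrays. Dnmt3a ran through the Chd7 mutant (11.02 ± 0.08), ICRF-193 (10.87 ± 0.08), Chd7 control (10.80 ± 0.05), DMSO (10.59 ± 0.13), no Smo2 (10.12 ± 0.09) and Smo2 (10.10 ± 0.05) arrays (SD, n = 4, and n = 3 for the last pair). Its neighbours did not overlap at the steps from Chd7 control to DMSO and from DMSO to no Smo2, and overlapped at the others. Tet2 had the same order of group means, highest in the Chd7 mutant (9.52 ± 0.14) and lowest with Smo2 (9.08 ± 0.09), but each group overlapped with its neighbour. Tet1 was highest with ICRF-193 (10.61 ± 0.29) and lowest in the Chd7 mutant (9.83 ± 0.40), and all its neighbours overlapped except DMSO and no Smo2. Which experiment an array came from and its group cannot be told apart for steps between experiments.

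**Figure D3:**
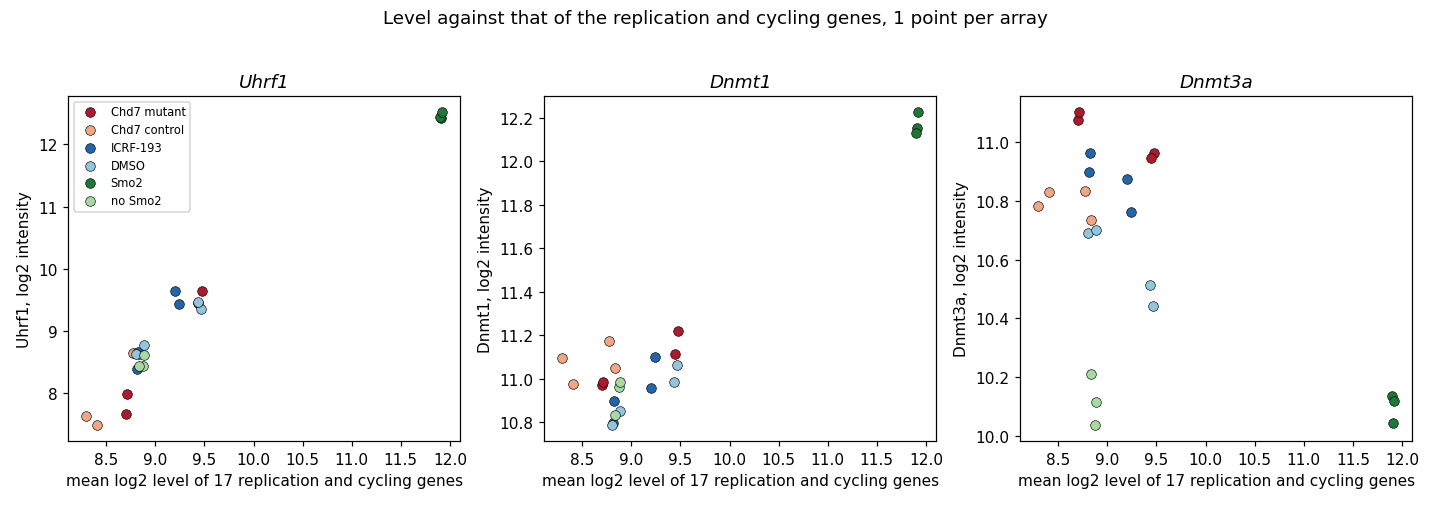
Log2 intensity of Uhrf1, Dnmt1 and Dnmt3a against the mean log2 level of 17 genes of DNA replication and cycling cells, with 1 point per array and a colour per group. The 3 Smo2 arrays lie at 11.90 to 11.92 on the horizontal axis and the other 19 arrays at 8.29 to 9.48. Uhrf1 lies at 12.43 to 12.52 in the Smo2 arrays and at 7.49 to 9.64 in the other 19.

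As a description of how the genes vary together over the 22 arrays, which share experiments and groups, Pearson correlations were taken of log2 values and of deviations from group means. Uhrf1 and Dnmt1 had r = 0.90 overall and 0.76 within groups, and Uhrf1 and Dnmt3b had 0.88 and 0.56. Dnmt3a and Dnmt1 had -0.53 and -0.74, so arrays of a group with more Dnmt1 tended to have less Dnmt3a. Deviations from group means still hold the difference between the sets of replicates that deviated together in the Chd7 and ICRF-193 experiments. In Chd7 mutant, ICRF-193 and DMSO arrays, the set with more Dnmt1 had less Dnmt3a. In Chd7 control arrays the sets overlapped for both genes. The within-group r values here and below may thus in part reflect these sets, which was not tested. Dnmt3a and Tet2 had 0.71 overall and -0.18 within groups, a likeness of group levels that the arrays of a group did not share.

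Of 10774 candidate genes above the median level, the ones most like Uhrf1 were Man1c1, a mannosidase (r = 0.99, and 0.97 within groups), Fignl1, which acts in recombination (0.98 and 0.93), and Rrm2, a subunit of ribonucleotide reductase (0.98 and 0.95). Those most like Dnmt1 were Rrm1, the partner subunit of that enzyme (0.98 and 0.81), the single-strand DNA binding protein Rpa1 (0.98 and 0.65) and Clic4 (0.98 and 0.75). Dnmt3b was most like Casp2, Zfp207 and the kinetochore protein Dsn1 (0.94, 0.94 and 0.94). Dnmt3a was most like Atp11a, Rph3a and Cxcl1 (0.96, 0.96 and 0.95, and 0.52, 0.29 and 0.56 within groups). The closest genes of the others had lower r: Uhrf2 with Fam199x, Tsfm and Pds5a (0.91 to 0.87), Mbd2 with Sem1, Plrg1 and Cfap298 (0.81 to 0.80), Tet1 with Rims3, Clmp and Phf14 (0.81 to 0.80), Tet2 with Plagl1, Lratd2 and Arhgef12 (0.81 to 0.80) and Tet3 with Cetn3, Ngef and Cyp20a1 (0.70 to 0.64).

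The wider methylation pathway was counted with the brightest probe set of each gene in lists drawn up with earlier results of these data known. In a fit with 1 probe set per gene, 7309 of all 18188 genes were called with Smo2. Listed genes without a probe set of a single symbol were not analysed here. Of 11 partners of the methyltransferases, 5 rose and 2 fell with Smo2 (median 0.41). Cdca7, which brings the remodeller Hells to chromatin, rose by 4.14 (limma adjusted p = 9.42e-05), Pcna, the sliding clamp of replication, by 2.27 and Hells itself by 2.20, while Zfp57, which protects imprinted marks, fell by 1.28. Of 7 other methyl-CpG binding proteins, 2 rose (the glycosylase Mbd4 by 0.87 and the NuRD subunit Mbd3 by 0.75) and 3 fell (among them Zbtb4 by 1.65 and Mbd6 by 0.51), with a median of -0.43. Of 11 NuRD subunits 5 rose and 1 fell (median 0.37), with the deacetylase Hdac1 up by 0.79, the histone binder Rbbp7 by 0.64 and Gatad2a by 0.54. The remodeller Chd3 fell by 1.29.

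Of 14 genes of demethylation through base excision, 6 rose and 4 fell with Smo2 (median 0.15). The glycosylase Neil3 rose by 2.89, the stress protein Gadd45g by 1.70, the scaffold Xrcc1 by 1.12 and the endonuclease Apex1 by 0.97. The glycosylase Tdg was left out because its probe sets also carry the symbols of its pseudogenes. Of 12 genes of methyl donor and cofactor supply, 7 rose and 3 fell (median 0.35). The rises were led by Idh2, a mitochondrial source of the Tet cofactor 2-oxoglutarate, with 2.10. Ahcy, which clears the product that inhibits methyltransferases, had 2.00, and the one-carbon enzymes Shmt1 and Shmt2 had 1.98 and 1.48. The 3 that fell were Idh1, the cytosolic relative of Idh2 (-0.67, at 12.93 with Smo2 and 13.60 without), Ahcyl2 (-0.66) and Ogt (-0.62). All 17 genes of replication and cycling rose (median 3.05), led by the licensing factors Cdc6 (4.95), Mcm3 (4.62) and Mcm6 (3.51) and the mitotic kinase Cdk1 (3.44).

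In the other comparisons the replicate block ended each call of the 5 methylation lists, without the replication list. Chd7 calls were 1 of 14 base excision genes, 1 of 12 supply genes and 1 of 11 NuRD subunits, and 0 of 7 and 0 of 11 elsewhere. Over all probe sets 3.12% were called for Chd7 and 2.23% for ICRF-193. The share was higher in the fit with 1 probe set per gene, whose counts are given below. The list calls were not set apart from these shares. In the Chd7 mutant the called genes were Gadd45g (higher by 0.54, limma adjusted p = 0.0116, and 0.0650 with the block), Idh2 (0.46, adjusted p = 0.0413, and 0.101 with the block) and the NuRD subunit Rbbp7 (0.24, adjusted p = 0.0286, and 0.0733 with the block). The block called Gadd45b instead (0.59, adjusted p = 0.0366). The medians of the 5 lists lay between -0.05 and 0.09. With ICRF-193 the called gene was Gadd45g (1.17, adjusted p = 0.0138, and 0.0807 with the block), with 8.72 in treated and 7.56 in DMSO arrays on average, and the medians lay between -0.08 and 0.01.

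**Figure D4:**
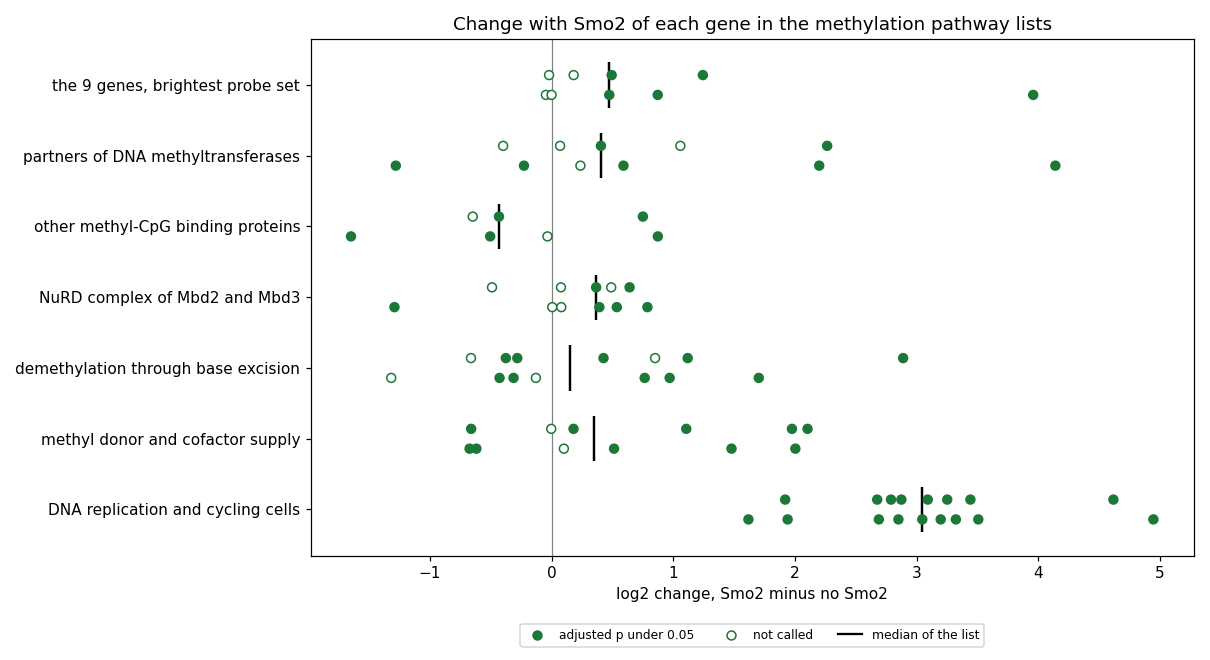
Log2 change with Smo2 of each gene (points, brightest probe set) in the 9 genes described here and in 6 lists of related genes; filled points passed an adjusted p of 0.05 and the black bar is the median of the list. The replication list lies wholly between 1.62 and 4.95, and Uhrf1 (3.96) and Cdca7 (4.14) lie within that range.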

How the data were processed

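The authors deposited linear signal intensities of 45101 probe sets on 22 arrays (total RNA, biotin-labelled). Their software and summarisation method are unknown here; each array had a mean of 500 once the lowest and highest 2% of probe sets were left out, so whole arrays had been scaled. Values under 16 were set to 16 before log2 was taken. Array medians spread over 0.475, more than the limit of 0.2, so quantile normalization was applied across arrays. By annotation, 34994 carry 1 symbol, 896 several and 9211 none; 64 controls were left out. No pair of arrays was identical (0 of 231). Each comparison was fitted on its own 2 groups with limma 3.58.1 in R 4.3.3 (variance trend, two-sided, Benjamini-Hochberg over 45037 probe sets), and differences between comparisons in a fit of all arrays. Named genes are the 9 members, Chd7, Top2b and up to 4 called genes of each list with the largest change. Also named are the 3 genes most correlated with each member and the methyl donor and cofactor genes that fell with Smo2. Members and lists were chosen with earlier results of these data known. Precision is limited by the number of arrays.

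Same-numbered arrays had correlated deviations from their group means, by 0.31 to 0.35 (Chd7) and 0.28 to 0.41 (ICRF-193), so the numbers were taken to pair these arrays, and by 0.02 to 0.03 (Smo2), where they were not. Arrays of another number within replicates 1 and 2, or within 3 and 4, correlated as much (0.27 to 0.36, and 0.32 to 0.34). A pairing finer than these sets was therefore not shown. The reported fits held no block, so their intervals, p-values and calls treat the arrays as unpaired. Replicate numbers or sets entered only the alternative fits that are named with them. On simulated data with 100 probe sets changed by 1 and 100 by 0.5, the fit recovered 55%, 52% and 48% of those changed by 1 and 25%, 21% and 25% of those changed by 0.5 (Chd7, ICRF-193 and Smo2, 45037 probe sets each). The simulated noise was independent between arrays, while the Chd7 and ICRF-193 arrays deviated in sets. With Smo2 30.1% of all probe sets were called, far more than were changed in the simulation. These rates therefore do not give the recovery in the real comparisons. Sequences are from RefSeq (GRCm38.p6). Figures were drawn with matplotlib 3.10.9.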

Additional observations from a re-analysis of the deposited data

Results flagged for a closer look

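For 5 of the 9 genes the Smo2 effect differed from the Chd7 effect in a test of the difference itself (brightest probe sets, limma, 27 differences examined in all over 3 contrasts). The difference was 3.37 for Uhrf1, 1.24 for Dnmt1, 0.74 for Dnmt3b, 0.57 for Mbd2 and 0.50 for Uhrf2 on the log2 scale.

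For 5 genes the Smo2 effect differed from the ICRF-193 effect. The difference was 3.99 for Uhrf1, 1.23 for Dnmt1, 1.00 for Dnmt3b and 0.43 for Uhrf2, and it was -0.31 for Dnmt3a, where the Smo2 change was the lower of the pair.

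In the 36 groups of 4 arrays examined, no array stood apart from the other 3 beyond the 95% limit for a gap at the end of a group.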

How the results depend on the processing

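The 5 genes called with Smo2 (Dnmt1, Uhrf1, Dnmt3b, Uhrf2 and Mbd2) kept direction and call at their brightest probe set in 75 of 75 combinations of gene and alternative, the replicate block among them. With 1 probe set per gene, 5 of 9 were called there, against 7309 of all 18188 genes. The dimmer Dnmt3b probe set lost its call with the replicate block (adjusted p = 0.119), where the numbers were not taken to pair the arrays.

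In the Chd7 comparison, 0 of the 23 were called with median centring, as deposited, with a floor of 32, without the variance trend, by the methods' t-test, with the replicate block, within replicates 1 and 2, within 3 and 4, with their means as samples and without any one array (0 to 0). Calls over all probe sets were 2231 with all groups in the fit, 937 with 1 probe set per gene, 858 with the replicate block, 3250 with replicates 1 and 2 against 3 and 4 as a block, 134 and 429 within these sets, 0 with their means and 708 to 917 without 1 array. With ICRF-193 they were 669 with median centring, 2005 with all groups, 660 with 1 probe set per gene, 1739 with the sets as a block, 0 within either set and with their means, and 667 to 818 without 1 array. Of the 23 there, 1 was called as deposited, 2 with dim probe sets left out, 3 with all groups and 3 with the sets as a block. At an unadjusted p under the threshold the methods' t-test called 4, 5 and 10 of the 23 (Chd7, ICRF-193 and Smo2), against 6470, 4902 and 15933 of all 45037. After adjustment it called 0, 0 and 8 of the 23, against 943, 709 and 11870 of all.

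Changes that crossed 0 were all uncalled. Leaving out 1 array gave, for Chd7, -0.05 to 0.0335 for Dnmt1, -0.0446 to 0.0444 for Uhrf2 and -0.27 to 0.0135 for Tet1; for ICRF-193, -0.0372 to 0.0644 for Dnmt1, -0.23 to 0.19 for Uhrf1, -0.46 to 0.37 for Tet3 and -0.0304 to 0.16 for Mbd2; and for Smo2, -0.0631 to 0.0237 for Dnmt3a, -0.23 to 0.19 for Tet1, -0.11 to 0.09 for Tet2 and -0.14 to 0.51 for Tet3. Within replicates 1 and 2, Chd7 gave -0.0121 for Dnmt3b and 0.21 for Tet3, and ICRF-193 -0.0151 for Tet1. Within 3 and 4, Chd7 gave 0.0563 for Dnmt1 and 0.22 for Tet1, and ICRF-193 0.0103 for Dnmt3b, 0.12 for Uhrf1 and -0.52 for Tet3. As deposited, Uhrf2 had 0.0127 (Chd7). With median centring, Dnmt1 had -0.0414 (ICRF-193), and Dnmt3a 0.15, Tet1 0.12 and Tet2 0.15 (Smo2); the differences became 0.0224 for Dnmt3a (Smo2 minus Chd7) and 0.0236 for Tet2 (Smo2 minus ICRF-193). Of the calls over all probe sets, 36.7% were higher under median centring, against 52.9% in the reported fit (Chd7). The causes were not tested. The number of arrays and the signal over background limit Tet3 and the dim probe sets most.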
